A study of Mus musculus with 6 samples.

Results

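The shortest RNAs sequenced from J1 mouse embryonic stem cells, those of 18 and 19 bases, are described here. Each deposited list gives distinct read sequences, called tags, with their length and raw read count. Every tag of 18 or 19 bases was taken, which gave 646352 of 3958863 distinct tags and 16492270 of 125223946 reads over the 6 libraries. No measured level entered that choice, and the lists hold no tag under 18 bases. J1 cells were grown on gelatin with LIF at 1000 U/ml and serum replacement, and received 1 agent for 24 h. The 6 groups were the vehicle DMSO (1 µL), retinoic acid (1 µM), BIO (1 µM), CHIR99021 (3 µM), the vehicle ddH2O (1 µL) and vitamin C (50 µg/ml). Per the series design, DMSO was the control of retinoic acid, BIO and CHIR99021, and ddH2O that of vitamin C.

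BIO and CHIR99021 inhibit the kinase GSK3, retinoic acid drives embryonic stem cells out of self-renewal, and dioxygenases use vitamin C as a cofactor. Each group had 1 library, which allows no test of a treatment, and variation between cultures and between library preparations is in none of the intervals below. Those intervals are 95% intervals and cover the counting error of reads alone. The lists carry no molecular identifiers and a molecule can have been read many times, so the intervals can be too narrow for the sampling of molecules. Retinoic acid, BIO and CHIR99021 share the DMSO library as control, so a feature of that library enters all 3 comparisons.

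MicroRNAs are cut from RNA hairpins by Drosha and Dicer and act through the seed, bases 2 to 8, which pairs with target mRNAs. Most mature microRNAs are longer than 19 bases, so a shorter form usually lacks bases at an end. Ribosomal RNA (rRNA) and small nucleolar RNA (snoRNA), which guides chemical modification of rRNA, are abundant in all cells and leave fragments in libraries of total RNA. Box C/D snoRNAs carry a C box close to their 5′ end.

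Reads were placed in 1 of 5 classes by exact match to the sense strand of mouse transcripts, in the order microRNA hairpin, rRNA, snoRNA, other transcript and unmatched. The class rRNA includes Gm42418, an annotated noncoding RNA on a ribosomal repeat of chromosome 17. Large-subunit rRNA, nuclear tRNA and the genome were not searched, so a read of these sources counted as unmatched. The tags on which the results turn are printed here, 5′ to 3′ and with GRCm38 coordinates. Unmatched tags are described by level alone.

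The leading rRNA tags, and the tag of that class with the largest change in retinoic acid, all came from exon 1 of Gm42418 on the plus strand and are named by their first base in that transcript.
Gm42418 base 1163: agaagacggtcgaacttga
Gm42418 base 78: cgtagttggatcttgggag
Gm42418 base 267: atggaataggaccgcggtt
Gm42418 base 751: gtggagcgatttgtctggt

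They lie at chr17:39848120-39848138, chr17:39847035-39847053, chr17:39847224-39847242 and chr17:39847708-39847726. The next set holds the leading tags of the class other transcript and those that changed most. They match exon 21 of Lars2, in its annotated 3′ UTR, or exon 2 of the noncoding gene Gm15564. A gene name here gives the match alone, and whether these reads come from large-subunit rRNA was not tested. Lars2 encodes the mitochondrial leucyl-tRNA synthetase.
Lars2 base 3033: aaggcgagctcagggagga
Lars2 base 3266: cattgtgaagcagaattca
Lars2 base 3267: attgtgaagcagaattca
Lars2 base 3285: ccaagcgttggattgttca
Lars2 base 3399: agtacgagaggaaccgca
Gm15564 base 229: ggtttagaccgtcgtgaga

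The Lars2 tags lie at chr9:123461803-123461821, chr9:123462036-123462054, chr9:123462037-123462054, chr9:123462055-123462073 and chr9:123462169-123462186, on the plus strand. The Gm15564 tag lies at chr16:35981728-35981746 on the minus strand. The microRNA tags below are shown with the seed, counted from the first base of the tag, in capitals. The 22 base forms stand beside the 19 base forms to show where they differ at the 3′ end.
miR-101b-3p, 19 bases: gTACAGTActgtgatagct
miR-101b-3p, 22 bases: gTACAGTActgtgatagctgaa
miR-101a-3p, 19 bases: gTACAGTActgtgataact
miR-101a-3p, 22 bases: gTACAGTActgtgataactgaa
miR-323-3p, 19 bases: cACATTACacggtcgacct
miR-293-3p, 18 bases: aGTGCCGCagagtttgta
miR-25-3p, 18 bases: cATTGCACttgtctcggt
Mir296, 18 bases: gAGGGTTGggtggaggct
miR-27a-3p and miR-27b-3p, 18 bases: tTCACAGTggctaagttc
miR-27b-3p, 21 bases: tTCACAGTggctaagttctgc

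These tags lie at chr19:29135338-29135356 (19 base miR-101b-3p), chr12:109712558-109712576 (miR-323-3p) and chr7:3220390-3220407 (miR-293-3p) on the plus strand. The miR-25-3p tag lies at chr5:138165336-138165353 and the Mir296 tag at chr2:174267062-174267079, both on the minus strand. The 3 leading snoRNA tags all start at the first annotated base of their gene, and capitals mark the letters TGATGA of the C box, which the Gm25894 tag does not hold.
Snord14c and Snord14d, 18 bases: tcgctgTGATGAtggatt
Snord14c and Snord14d, 19 bases: tcgctgTGATGAtggattc
Gm25894, 19 bases: ctacggggatgatatgaaa

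The libraries held 18870345 to 23758363 reads. Reads of 18 to 26 bases from the 16 arms of the stem cell markers miR-290a, miR-291a, miR-292a, miR-294, miR-295 and miR-302 summed to 3959 counts per 1000000 reads of the library (CPM) in retinoic acid and to between 11755 and 20780 CPM in the other libraries. The summed levels of other cell types' markers were lower than that sum in every library, at 47.3 to 533 for neuron, 35.4 to 245 for muscle, 83.5 to 209 for fibroblast and 3.92 to 18.5 for blood. This did not hold for miR-302 alone. The whole cluster of miR-302 summed to 4.08 CPM in retinoic acid, its lowest, and 26.2 CPM in BIO, its highest. It lay below the neuron, muscle and fibroblast sums in every library, and above the blood sum only in retinoic acid and BIO. The stem cell sum thus came almost wholly from its other members. The liver marker miR-122 stood at 79.7 CPM in CHIR99021 and at 2.06 to 2.91 elsewhere, and its part in other results was not tested. In these bulk libraries, fewer cells of a type and less of its RNA per cell cannot be told apart. The description of the BIO library states that its raw reads were lost.

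Vitamin C had the most short reads and BIO the fewest, and the 18 base reads differed more than the 19 base reads. Of all reads, 18 base reads were 3.73% in ddH2O, 8.58% in vitamin C, 3.81% in DMSO, 2.38% in BIO, 6.50% in CHIR99021 and 4.53% in retinoic acid. The 19 base reads were 7.26%, 10.2%, 7.11%, 5.64%, 9.34% and 9.85% in the same order. Both vehicles lay close together at both lengths, and vitamin C and CHIR99021 stood highest at 18 bases. There were 0.845 reads of 18 bases per read of 19 bases in vitamin C and 0.696 in CHIR99021, against 0.514 in ddH2O, 0.536 in DMSO, 0.460 in retinoic acid and 0.421 in BIO.

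The combined share of 18 and 19 base reads was 1.70-fold higher in vitamin C than in ddH2O (interval 1.702 to 1.707). At 18 bases alone the ratio was 2.30, and at 19 bases alone 1.40. The share was 1.45-fold higher in CHIR99021 than in DMSO (1.448 to 1.453), with 1.71 at 18 bases and 1.31 at 19 bases. In retinoic acid it was 1.32-fold that of DMSO (1.314 to 1.319), and there the 19 base reads differed more, at 1.38 against 1.19. BIO had a lower share, with DMSO 1.36-fold above it (1.360 to 1.365). The 2 GSK3 inhibitors, given at different doses, thus lay on opposite sides of the shared control, at 8.01% for BIO and 15.8% for CHIR99021. The vehicles differed by a ratio of 1.006 (1.004 to 1.008), ddH2O over DMSO.

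The other end of the length range mostly ran opposite to the short end. Vitamin C, CHIR99021 and retinoic acid, with the largest short shares, had the smallest shares of reads of 27 bases or more. The order was not an exact reverse. Reads of 27 bases or more were 16.4% in ddH2O, 7.62% in vitamin C, 11.95% in DMSO, 20.4% in BIO, 10.1% in CHIR99021 and 5.26% in retinoic acid. BIO was lowest at the short end and highest at the long end, while the vehicles, close at the short end, were apart at the long end. The part of library size selection in these shares was not tested.

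MicroRNA hairpin reads were a smaller part of the short reads than of the longer ones in all 6 libraries. They made up 2.68% of the 18 and 19 base reads in ddH2O, 2.35% in vitamin C, 5.22% in DMSO, 2.00% in BIO, 1.29% in CHIR99021 and 1.04% in retinoic acid. Among reads of 20 to 26 bases their shares were, in that order, 11.6%, 12.03%, 14.2%, 13.1%, 7.93% and 4.55%. DMSO had the highest microRNA share of short reads, 1.95-fold above the other vehicle (1.931 to 1.970). The DMSO share was 5.01-fold that of retinoic acid, 2.61-fold that of BIO and 4.05-fold that of CHIR99021. Since DMSO stands above ddH2O by itself, the ratios to DMSO include what sets that library apart.

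For microRNAs the direction of 2 comparisons depended on the total. Short microRNA reads were 0.878 times as large a share of the short reads in vitamin C as in ddH2O (0.869 to 0.887). As a share of all reads they were 1.496-fold higher, at 4399 against 2941 CPM. CHIR99021 against BIO turned in the same way, from a ratio of 0.644 among short reads to 1.27 among all reads. For retinoic acid, BIO and CHIR99021 against DMSO the short microRNA reads were lower on both scales, with DMSO 3.81-fold, 3.55-fold and 2.79-fold above them in CPM.

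Fragments of rRNA made up 18.1% of the short reads in ddH2O, 15.0% in vitamin C, 14.6% in DMSO, 17.8% in BIO, 14.5% in CHIR99021 and 21.4% in retinoic acid. Retinoic acid had the largest share, 1.47-fold that of DMSO (1.461 to 1.474), and 1.93-fold that of DMSO in CPM. The direction turned with the total for BIO against DMSO, at 1.22 among short reads and 0.897 among all reads, and for vitamin C against ddH2O, at 0.833 and 1.42. For CHIR99021 it turned against BIO, at 0.815 and 1.61, and against DMSO from 0.996, whose interval held 1, to 1.45. Gm42418 supplied nearly all of this class, with 14.1% to 20.96% of the short reads of a library. Genes of 5S rRNA and their copies supplied 0.260% to 0.383%, and mitochondrial rRNA at most 0.0451%. Some unmatched reads matched the opposite strand of CT010467.1, a gene annotated as rRNA on the minus strand at chr17:39846353-39848827, which overlaps Gm42418. In DMSO, 371777 short reads matched that opposite strand and 17 the annotated sense strand. Of the 371777, 81731 were unmatched, 3.97% of the short reads of DMSO, and the rest already had a class. With these unmatched reads counted as rRNA, a choice made after seeing the values, the rRNA shares were 22.8%, 19.995%, 18.5%, 21.7%, 19.4% and 27.9% in the order ddH2O, vitamin C, DMSO, BIO, CHIR99021 and retinoic acid. Retinoic acid remained highest.

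Reads of snoRNA were the smallest class, between 0.258% of short reads in ddH2O and 0.341% in DMSO. The class other transcript held 7.44% in ddH2O, 8.97% in vitamin C, 6.98% in DMSO, 6.95% in BIO, 8.79% in CHIR99021 and 4.76% in retinoic acid. It was 1.21-fold higher in vitamin C than in ddH2O and 1.26-fold higher in CHIR99021 than in DMSO among short reads. Unmatched reads were the largest class in every library, at 71.6% to 75.1%. Reads that matched more than 1 class were 0.662% to 1.60% of short reads.

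Counted within each class, the share of reads that were 18 or 19 bases long was higher in vitamin C than in ddH2O in all 5 classes. It was 4.72% against 3.38% for microRNA hairpins, 21.7% against 13.8% for rRNA, and 7.05% against 3.20% for snoRNA. It was 35.1% against 22.1% for other transcripts and 19.05% against 10.9% for unmatched reads. BIO had the lowest share of the 6 libraries in each class, from 1.68% for microRNA hairpins to 15.8% for other transcripts. MicroRNA hairpins had the lowest short share of the 5 classes in 4 of the 6 libraries, and snoRNA the lowest in DMSO and ddH2O.

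Retinoic acid and CHIR99021 showed opposite directions in microRNA hairpins and in the other classes. The short share of rRNA reads was 18.3% in both, against 13.5% in DMSO, and that of snoRNA reads was 6.77% and 5.16% against 3.00%. The short share of microRNA reads was 3.93% in retinoic acid and 3.35% in CHIR99021, below the 4.93% of DMSO. Against ddH2O, with 3.38%, retinoic acid was higher, while CHIR99021 was lower by less than the counting intervals. The direction for microRNAs thus turned with the vehicle library for retinoic acid.

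Distinct short tags numbered 134646 in ddH2O, 235139 in vitamin C, 143614 in DMSO, 118943 in BIO, 195977 in CHIR99021 and 115462 in retinoic acid. Thinned to the 1783601 short reads of BIO, they numbered, in that order, 114131, 132220, 129315, 118943, 113580 and 85318. At equal depth retinoic acid had the fewest distinct tags, and DMSO and vitamin C the most. A few tags held much of each library. The 10 most abundant held 12.7% of short reads in ddH2O, 11.3% in vitamin C, 11.7% in DMSO, 15.3% in BIO, 12.8% in CHIR99021 and 15.0% in retinoic acid. The number of tags that held 50% of the short reads was lowest at 146 in retinoic acid and BIO and highest at 207 in vitamin C. By comparison, 200 to 297 tags held 50% of the reads of 20 to 26 bases, more than for short reads in each library. The most abundant tags gave another order. The 10 most abundant tags of 20 to 26 bases held 17.4% of those reads in retinoic acid and 18.5% in BIO. In every library except ddH2O that share was above the share of the 10 most abundant short tags. Which length was the more concentrated thus depended on the measure.

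The short tags of the 6 libraries were largely the same sequences when weighted by reads. The 20529 tags found in all 6 libraries were 8.73% to 17.8% of the distinct short tags of a library and 91.6% to 95.1% of its short reads. Tags read once were 67.8% to 73.8% of the distinct short tags and 2.81% to 5.04% of the short reads.

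Nearly all short reads were contained in longer reads of their own library. Between 94.4% and 97.1% of short reads equalled the start of a longer tag, and between 90.9% and 94.95% equalled the end of a longer tag, so most did both. Only 1.77% to 3.70% lay in no longer tag of the library. A longer tag of any level counted here, even one read once. For 59.5% to 71.8% of short reads a longer tag that held them was more abundant than the short tag. Of the distinct short tags of a library, 47.1% to 61.8% lay in a longer tag. The classes differed at the 3′ side. Of microRNA hairpin reads in retinoic acid, 99.4% equalled the start of a longer tag and 50.5% the end of one, and in vitamin C 99.4% and 77.0%. For rRNA reads both figures were 99.8% to 99.9% in every library. With only longer tags more abundant than the short tag counted, the end figure for microRNA reads was 6.80% in retinoic acid and 5.83% in vitamin C. The difference between these 2 libraries thus depended on the measure.

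The most abundant short tag overall was the Gm42418 tag from base 1163. Its level was 2253 CPM in ddH2O, 4682 in vitamin C, 2977 in DMSO, 3186 in BIO, 2419 in CHIR99021 and 2449 in retinoic acid. Vitamin C was highest and the other 5 libraries lay between 2253 and 3186. The tag from base 78 stood at 1550 in ddH2O, 1294 in vitamin C, 996 in DMSO, 781 in BIO, 1592 in CHIR99021 and 4111 in retinoic acid, with retinoic acid alone above 1592. The tag from base 267 showed the same order at its top, with 2865 in retinoic acid and 784 to 1573 in the other libraries. Short reads covered 84.4% to 92.7% of the Gm42418 transcript, yet 10 start positions held 53.9% to 60.3% of them.

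Among microRNAs, the 19 base form of miR-101b-3p led the short tags. It stood at 546 CPM in ddH2O, 747 in vitamin C, 1057 in DMSO, 272 in BIO, 386 in CHIR99021 and 255 in retinoic acid. The 22 base form stood at 352, 318, 344, 356, 241 and 128 in the same order. The 19 base form was the more abundant of the 2 in every library except BIO. It equals the mature miR-101b-3p that RefSeq lists for GRCm38. RefSeq lists 45 mature mouse microRNAs of 18 or 19 bases, of which 7 were found whole as tags, and miR-101b-3p held over 99.2% of their reads in each library. These 7 made up 17.1% to 19.02% of the short microRNA reads.

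The printed tags of miR-101a-3p have the same seed as those of miR-101b-3p. Their 22 base forms differ by 1 base, A17G, counted from the 5′ end with miR-101a-3p given first. The printed miR-101a-3p tags start 1 base before the mature miR-101a-3p that RefSeq lists. The seed of that listed form is thus shifted by 1 base and is not the one in capitals. Of reads of 18 to 26 bases from the miR-101b-3p arm, 41.1% in ddH2O, 49.4% in vitamin C, 55.1% in DMSO, 27.7% in BIO, 42.1% in CHIR99021 and 46.4% in retinoic acid were short. In that order the short shares of miR-101a-3p were 9.57%, 13.2%, 16.6%, 5.33%, 10.1% and 11.6%. The b form was the shorter of the pair in each library, and for both DMSO was highest, vitamin C next and BIO lowest.

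miR-27a-3p and miR-27b-3p, whose leading longer tags differ by C19T, share their first 18 bases. The shared 18 base tag stood at 129 CPM in ddH2O, 152 in vitamin C, 182 in DMSO, 56.2 in BIO, 63.8 in CHIR99021 and 32.6 in retinoic acid. Its reads cannot be assigned to either gene and were divided evenly. The 21 base form of miR-27b-3p stood between 4.03 and 17.6 CPM, so the 18 base tag exceeded it in every library. Short reads were 68.3% to 87.7% of the miR-27b-3p arm and 75.4% to 89.5% of the miR-27a-3p arm, which held fewer than 1000 reads in some libraries.

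The arm of miR-323-3p, from the imprinted Dlk1-Dio3 region, was 50.7% short in ddH2O, 56.0% in vitamin C, 57.7% in DMSO, 35.9% in BIO, 50.1% in CHIR99021 and 47.9% in retinoic acid. Of the same region, miR-376a-3p was 18.2% to 37.8% short and miR-411-5p 17.5% to 32.8%, with BIO lowest for both. At the other end, let-7g-5p, of the let-7 family linked to differentiation, had 11 short reads among 71706 over the 6 libraries. miR-29a-3p had 18 among 30409, and miR-25-5p 32 among 62772. The opposite arm of that last hairpin, miR-25-3p, was 2.88% to 9.85% short. Short forms were thus unevenly spread over arms, and 10 arms held 70.3% to 76.7% of the short microRNA reads.

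Of 1237 microRNA arms with reads, 667 had short reads and 76 held at least 1000 reads of 18 to 26 bases in every library. The median short share of these 76 arms was 0.458% in ddH2O, 0.668% in vitamin C, 0.908% in DMSO, 0.357% in BIO, 0.478% in CHIR99021 and 0.666% in retinoic acid. Vitamin C exceeded ddH2O in 68 of the 76 arms, and BIO lay below DMSO in 72. CHIR99021 exceeded BIO in 67. The ddH2O library lay below DMSO in 67 arms, so the vehicles differed here although their overall short shares were nearly equal. Retinoic acid lay below DMSO in 47 arms and above ddH2O in 65. CHIR99021 lay below DMSO in 56 and above ddH2O in 50.

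Short microRNA reads mostly shared the 5′ end of the longer form. A short read with that start must stop before the 3′ end of the longer form, because of its length. Between 79.9% and 86.6% of them began at the same base as the arm's most abundant tag of 20 to 26 bases, and 93.8% to 98.4% began within 2 bases of it. Only 1.44% to 2.85% ended at that tag's last base. The miR-290 cluster, the main microRNA cluster of embryonic stem cells, was 1.76% short in ddH2O, 2.55% in vitamin C, 2.63% in DMSO, 0.891% in BIO, 1.90% in CHIR99021 and 1.97% in retinoic acid. Within that cluster miR-293-3p held most short reads, such as 14262 of 16551 in DMSO and 2012 of 2425 in retinoic acid. The stem cell marker arms, which leave miR-293 out, were 0.184% to 0.540% short. The let-7 family was close to those marker arms, at 0.167% to 0.493% short. The hairpins Mir6240, Mir6236, Mir5126 and Mir690, grouped because of earlier results of these data, held 1.74% of the short arm reads in DMSO and 9.61% in retinoic acid.

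First bases set the short microRNA reads apart from longer microRNA reads, and last bases set them apart from other short reads. Between 50.0% and 56.0% of short microRNA reads ended in T, against 19.7% to 22.9% of all short reads. Among microRNA reads of 20 to 26 bases the share ending in T was 57.1% to 61.2%, so it was not higher in the short ones. The first base of short microRNA reads was G in 27.4% to 30.6% and of 20 to 26 base microRNA reads in 3.93% to 4.50%. The 19 base form of miR-101b-3p, the leading tag of the class, begins with G and ends in T. The 7 listed mature forms, over 99.2% of them this tag, made up 17.1% to 19.02% of the class. Much of the share starting with G was thus this 1 tag.

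Among snoRNA reads, the 18 base tag of Snord14c and Snord14d, box C/D snoRNAs, stood at 41.8 CPM in ddH2O, 137 in vitamin C, 62.9 in DMSO, 23.05 in BIO, 104 in CHIR99021 and 58.0 in retinoic acid. The 19 base tag, longer by 1 base at the 3′ end, stood in the same order at 39.6, 44.8, 50.1, 42.5, 53.5 and 88.0. The 18 base form was the more abundant in CHIR99021, vitamin C and both vehicles and the less abundant in retinoic acid and BIO. Both tags match 2 genes, whose reads cannot be told apart. The third tag, from Gm25894 at chr19:8724251-8724269, stood between 9.23 and 16.9 CPM. Short snoRNA reads that began within 3 bases of the gene's start were 46.3% to 54.9% of the class. The letters TGATGA, searched on the strand of the tag, were in 50.9% to 59.7% of short snoRNA reads and in 0.469% to 0.673% of all short reads.

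Reads that matched Lars2 were 41.7% to 54.9% of the short reads of the class other transcript. At least 99.9% of them lay between bases 3000 and 3500 of the 3894 base transcript. The noncoding genes AA474408 and Gm15564 followed with 12.9% to 25.8% and 13.4% to 20.4%, counting a tag for each gene it matched. Only 55.4% of the Lars2 reads and 1.90% of the AA474408 reads matched that gene alone, so these genes share sequence and their shares overlap. Whether such reads come from large-subunit rRNA was not tested. Tags of U2 snRNA genes such as Rnu2-10, a part of the spliceosome, were 3.80% of the class in DMSO, 1.70% in ddH2O and 0.981% in vitamin C.

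The Lars2 tag from base 3399 stood at 620 CPM in ddH2O, 1599 in vitamin C, 703 in DMSO, 358 in BIO, 1302 in CHIR99021 and 362 in retinoic acid. In that order the tag from base 3266 stood at 321, 573, 269, 327, 848 and 219. CHIR99021 and vitamin C were highest for both. The Gm15564 tag stood, again in that order, at 562, 627, 264, 346, 646 and 364, with ddH2O close to vitamin C.

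In the comparison of vitamin C with ddH2O a tag was called when its share of all reads changed 2-fold or more with an interval that left out 1 and the higher of its levels was at least 10 CPM. Of 1850 short tags compared, 813 were higher in vitamin C (43.9%) and 46 lower (2.49%). Among tags of all lengths 14.6% were called higher and 14.2% lower. The median log2 ratio was 0.82 for short tags and -0.01 for tags of all lengths. Of all calls, 94.6% were higher, and 65.7% when counts were scaled to the short reads of each library instead. The share of higher calls was thus smaller once the larger short share of the library was scaled away. By class, 11 of 48 microRNA tags, 72 of 232 rRNA tags, 4 of 7 snoRNA tags and 56 of 130 other transcript tags were higher. Lower were 28 rRNA tags, 3 other transcript tags, 15 unmatched tags and no microRNA or snoRNA tag, so rRNA made up most of the 46.

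Ranks of called tags, here and in the other comparisons, are among those whose higher level was at least 100 CPM. The largest ratio of these belonged to the Lars2 tag from base 3285, at 870 CPM in vitamin C and 16.9 in ddH2O (51.3-fold, 46.1 to 57.3). It stood at 415 in CHIR99021, 27.2 in DMSO, 18.2 in BIO and 9.39 in retinoic acid, so both vitamin C and CHIR99021 were far above the other 4 libraries. This tag begins at the base after the tags from bases 3266 and 3267 end. The 18 base tag from base 3267 showed a like pattern, at 175 in vitamin C and 145.1 in CHIR99021 and between 3.10 and 11.2 elsewhere. Reads of any length that spanned the boundary between bases 3284 and 3285, looked at after these values were seen, stood at 621 CPM in vitamin C, 355 in ddH2O, 480 in CHIR99021 and 505 in DMSO. Reads that began at base 3285 stood at 2852 in vitamin C and 2841 in CHIR99021, against 875 in ddH2O and 638 in DMSO. Of these, 35.5% were short in vitamin C and 15.5% in CHIR99021, against 2.68% in ddH2O and 5.49% in DMSO.

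The other leading tags higher in vitamin C were 3 unmatched tags, at 37.1-fold to 41.6-fold. Those lower in vitamin C changed less. An unmatched tag of 19 bases was 3.20-fold lower, and the Lars2 tag from base 3033 stood at 48.1 against 123.9 in ddH2O, 2.58-fold lower (2.395 to 2.778).

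Against DMSO, 575 of 1649 short tags were higher in CHIR99021 (34.9%) and 171 lower (10.4%), where tags of all lengths gave 15.3% and 20%. Higher tags made up 77.1% of the calls, 51.8% with scaling to the short reads and 96.4% with scaling to microRNA reads. Of 58 microRNA tags 46 were lower and 1 higher, while 63 of 116 other transcript tags and 85 of 201 rRNA tags were higher. A tag entered if either library reached 10 CPM, and DMSO had the most short microRNA reads. MicroRNA tags could thus enter through DMSO alone, which favours lower calls in every comparison with DMSO. Between CHIR99021 and BIO, without DMSO, 27 microRNA tags were compared. Of all reads, microRNA reads of 20 to 26 bases were 5.88% in CHIR99021 and 10.97% in DMSO, so longer forms were lower too. The Lars2 tag from base 3285 led the higher calls at 15.2-fold (13.9 to 16.7), and that from base 3267 was 12.9-fold higher.

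The Mir296 tag was lowest relative to DMSO among the tags at 100 CPM or more in that comparison. It stood at 16.5 CPM in ddH2O, 30.8 in vitamin C, 130 in DMSO, 20.2 in BIO, 20.5 in CHIR99021 and 14.6 in retinoic acid. DMSO was high and the other 5 libraries, the other vehicle included, were low. The tag was 6.33-fold lower in CHIR99021, 6.42-fold lower in BIO, 8.87-fold lower in retinoic acid and 7.88-fold lower in ddH2O, all against DMSO.

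In retinoic acid, 574 of 1641 short tags were higher than in DMSO (34.98%) and 236 lower (14.4%), against 26.8% and 27.6% among tags of all lengths. Higher tags made up 70.9% of calls, 53.3% with scaling to the short reads and 97.6% with scaling to microRNA reads, which were fewest in this library. Of 229 rRNA tags 142 were higher and 14 lower, and of 56 microRNA tags 1 was higher and 48 lower. Here too microRNA tags could enter through DMSO alone. MicroRNA reads of 20 to 26 bases were 3.66% of all reads in retinoic acid and 10.97% in DMSO. The Gm42418 tag from base 751 led the higher calls at 100 CPM or more, at 135 CPM against 3.76 in DMSO (35.8-fold, 28.3 to 46.0). It stood at 61.8 in ddH2O and at 3.998 to 11.1 in BIO, CHIR99021 and vitamin C, so ddH2O was also high. A tag of the same length starting 3 bases downstream stood at 61.4 in retinoic acid and 42.7 in DMSO.

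Among the tags lower in retinoic acid, the 18 base form of miR-293-3p, of the miR-290 cluster, stood at 506 CPM in DMSO and 65.0 in retinoic acid (7.78-fold lower, 7.34 to 8.26). It stood at 228 in ddH2O, 379 in vitamin C, 131 in BIO and 217 in CHIR99021. The 22 base form of miR-293-3p stood at 9523 in DMSO and 1787 in retinoic acid. The 18 base form of miR-25-3p, of the miR-106b-25 cluster, stood at 170 in DMSO and 22.3 in retinoic acid (7.61-fold lower), with 29.2 to 126 in the other libraries. DMSO was the highest library for both.

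Short tags were mostly lower in BIO. Of 1255 compared with DMSO, 6 were higher (0.478%) and 357 lower (28.4%), where tags of all lengths gave 5.47% and 12.3%. Higher tags made up 1.65% of calls, and 15.2% with scaling to the short reads. The 6 higher tags became 19 with TMM scaling, and 51 were higher and 484 lower with ddH2O as control. Of 56 microRNA tags 49 were lower and none higher, and these tags too could enter through DMSO alone. MicroRNA reads of 20 to 26 bases were 9.37% of all reads in BIO and 10.97% in DMSO. No tag at 100 CPM or more was called higher. The 4 largest lower calls at that level were the Mir296 tag and 3 unmatched tags, at 6.29-fold to 8.90-fold.

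CHIR99021 and BIO, which share their target kinase and were given at 3 µM and 1 µM, differed widely in the short tags. Of 1494 compared, 843 were higher in CHIR99021 (56.4%) and 11 lower (0.736%), against 19.8% and 14.5% among tags of all lengths. The median log2 ratio was 1.17 for short tags and 0.10 for all lengths. Higher tags made up 98.7% of calls, and 68.8% with scaling to the short reads. The Lars2 tag from base 3285 was 22.8-fold higher (20.6 to 25.2) and that from base 3267 15.5-fold higher. In 27 microRNA tags 5 were higher and none lower.

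The vehicles gave a comparison of 2 libraries that received a vehicle alone, each a different one. An effect of the vehicles and variation between libraries cannot be told apart in it. Of 1448 short tags, 221 were higher in ddH2O than in DMSO (15.3%) and 230 lower (15.9%), and among tags of all lengths 17.9% and 13.9%. Higher tags made up 49.0% of calls, and 77.9% with scaling to microRNA reads. Of 56 microRNA tags 25 were lower and none higher in ddH2O, and of 189 rRNA tags 65 were higher and 9 lower. As in the other comparisons with DMSO, microRNA tags could enter through DMSO alone. Unmatched tags led the higher calls, at 3.36-fold to 5.32-fold. The Mir296 tag led the lower calls. These vehicle values are the only measure here of how far libraries with a vehicle alone lie apart, and they include any effect of the vehicles.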

How the data were processed

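Small RNA reads of 6 libraries of J1 cells, 1 per group, were analysed. The deposited files hold raw counts per distinct sequence, with its length. Per the labels' protocols, total RNA was isolated with TRIzol and an Illumina TruSeq RNA kit was used. The submitters' processing notes name mm9, and trimming and filters are not given in the sources used here. Values were whole, each sequence was listed once, and lengths ran from 18 to 44 bases. Libraries held 18870345 to 23758363 reads, of which 1783601 to 3859437 were of 18 or 19 bases. In all reads of a library, 3 reads, the limit a count of 0 allows, were 0.126 to 0.159 counts per 1000000 reads (CPM).

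Tags were matched without mismatch to GENCODE M21 transcripts (GRCm38) with numba 0.67.0, numpy 2.4.6 and pandas 2.3.3, and the matching was tested on simulated tags. MicroRNA arms were named from RefSeq mature sequences (GRCm38) or the hairpin symbol. Coordinates are those of GRCm38, not of mm9. Shares carry Clopper-Pearson intervals and ratios exact conditional binomial intervals (scipy 1.17.1), both at 95%. The tags named were the 10 most abundant, the 3 most abundant of each matched class, and per comparison the 4 highest and 4 lowest ratios among called tags at 100 CPM or more. The arms named were the 10 with the most short reads and, among those with 1000 reads in every library, the 5 of largest and 5 of smallest short share. The text prints a part of these, and matched tags alone by sequence. Alternatives included other totals, edgeR 4.0.16 and DESeq2 1.42.0 scaling, other minimums, strand and class order. The members, lists and rules were chosen with earlier results of these data known.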

Additional observations from a re-analysis of the deposited data

How the results depend on the processing

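No paired analysis was possible because each group has 1 library, and no library could be left out for the same reason. With 18 bases alone, the ratio of short shares was 1.19 for retinoic acid, 0.624 for BIO and 1.71 for CHIR99021, each against DMSO, 2.30 for vitamin C against ddH2O, 2.74 for CHIR99021 against BIO and 0.980 for ddH2O against DMSO. In the same order it was 1.38, 0.793, 1.31, 1.40, 1.66 and 1.02 with 19 bases alone, and 1.35, 0.753, 1.29, 1.49, 1.71 and 0.967 with 18 to 20 bases. With reads of 18 to 26 bases as the total it was 1.22, 0.812, 1.42, 1.54, 1.75 and 1.06. Without tags read once it was 1.34 for retinoic acid, 1.47 for CHIR99021 and 2.00 for CHIR99021 against BIO, and 1.01 for the vehicles. With the other vehicle as control it was 1.72 for vitamin C, 1.44 for CHIR99021, 0.729 for BIO and 1.31 for retinoic acid. The comparison of vehicles, near 1, was the single one to turn direction among these.

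The microRNA share of short reads, without tags of more than 1 class, gave ratios of 0.212 for retinoic acid, 0.239 for CHIR99021, 0.850 for vitamin C, 0.630 for CHIR99021 against BIO and 0.503 for the vehicles, and with both strands 0.252 for CHIR99021. As a share of all reads, added after seeing the data, the ratios were 0.358 for CHIR99021, 0.281 for BIO and 0.263 for retinoic acid, and turned to 1.496 for vitamin C and 1.27 for CHIR99021 against BIO. For rRNA they turned to 0.897 for BIO, 1.45 for CHIR99021, 1.42 for vitamin C and 1.61 for CHIR99021 against BIO. The rRNA ratio of CHIR99021 to DMSO, 0.996, turned to 1.05 with both strands and, added after seeing the data, to 1.05 with the opposite strand of CT010467.1 as rRNA.

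Calls of short tags numbered 451 for the vehicles, 859 for vitamin C, 854 for CHIR99021 against BIO, 746 for CHIR99021, 363 for BIO and 810 for retinoic acid. In that order they numbered 4661, 7718, 7266, 5823, 4192 and 5826 without a minimum level, and 120, 252, 269, 236, 77 and 227 at 50 CPM. With microRNA reads as the total they numbered 1339 for retinoic acid and 1152 for CHIR99021. With the other vehicle as control, lower tags fell in number from 236 to 141 for retinoic acid and rose from 46 to 82 for vitamin C. With short reads as the total, added after seeing the data, they numbered 516 for CHIR99021 against BIO. TMM moved all log2 ratios by 0.30 for BIO, 0.13 for CHIR99021 and -0.16 for CHIR99021 against BIO, and microRNA totals by 1.60 for retinoic acid and 0.93 for CHIR99021.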
